A study of Mus musculus with 4 samples.

Results

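The genes described here mostly encode enzymes that oxidise or reduce alcohols, aldehydes, ketones or steroids. They belong to the alcohol dehydrogenases (Adh), retinol dehydrogenases and their relatives (Rdh, Dhrs), aldehyde dehydrogenases (Aldh), aldo-keto reductases (Akr1, Akr7) and hydroxysteroid dehydrogenases (Hsd). They were taken by gene symbol alone, as protein-coding RefSeq genes whose symbol starts with Akr1 or Akr7, or with Adh, Aldh, Rdh, Dhrs or Hsd followed by a digit. This gave 87 of 21887 protein-coding genes. Accessible sites near them were compared between organoids from C57BL/6J mouse jejunal epithelium at 0 h and at 72 h of BMP2. Organoids at 0 h stayed in medium with CHIR99021, valproic acid, EGF, Noggin and R-spondin. At 72 h EGF and R-spondin were kept, Noggin, valproic acid and CHIR99021 had been withdrawn, and BMP2 was present at 100 ng/mL, so the medium and BMP2 changed together and cannot be told apart. Each time point is 1 library of 30000 cells; the sources used here give neither the number nor the age of the mice. No difference below therefore has a replicate check, and none was tested. The families were selected on earlier counts of 0 h and 72 h peaks near them in these same libraries, so the peak numbers and one-library classes below describe the members and support nothing further.

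In the gut, dietary retinol is oxidised to retinal by alcohol and retinol dehydrogenases, and retinal to retinoic acid by the ALDH1A enzymes, while several DHRS and AKR enzymes run the first step backwards. Aldo-keto reductases and the remaining aldehyde dehydrogenases clear reactive aldehydes from food, lipid peroxidation and amino acid breakdown. Hydroxysteroid dehydrogenases switch steroid hormones, bile acid precursors and some lipids between hydroxyl and keto forms, and so set how much active hormone a cell sees. Many of these enzymes are abundant in the absorptive cells of the villus.

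A peak is a stretch of open chromatin as called by the authors at a p-value threshold of 1e-05 or, for the subset called strict here, 1e-10. A peak was shared if at least 1 bp of it overlapped a 1e-05 peak of the other library. A strict peak of 1 library was called at 1e-10 there and had no overlapping peak, even at 1e-05, in the other. Gene end means within 1 kb of either boundary of the gene. Each peak counts for 1 gene, the one that holds its midpoint or lies nearest, so a member without a peak may have one assigned to its neighbour. Of all peaks, 35857 at 0 h and 41343 at 72 h, 32997 and 37726 lay within 50 kb of a protein-coding gene. The tissue label was checked with epithelial markers: all 10 genes, among them Epcam, Cdh1 and Vil1, had peaks in both libraries. Jejunal enterocyte markers had 19 peaks at 0 h and 40 at 72 h, with peaks at 5 and 8 of 8 genes, and 7 of the 8 had a strict 72 h-only peak. Over all genes peaks were more numerous at 72 h by a factor of 1.14. Of all genes with a peak, 18.6% had a strict 72 h-only one. The crypt base markers Lgr5, Olfm4, Ascl2 and Axin2 had 22 peaks at 0 h and 15 at 72 h. Their strict peaks numbered 11 and 9, at 3 and 4 of these genes. Both strict 0 h-only peaks were at Ascl2, and Lgr5 had a strict 72 h-only peak. Among immune markers Csf1r had 1 peak, at 72 h, and Ptprc, Cd3e and Lyz2 had none. The 5 fibroblast markers had 8 peaks in each library, the 3 endothelial markers 2 and 3, and the 4 hepatocyte markers 1 and 3, with none at Alb. The part that these differences in enterocyte and crypt marker peaks play in the peaks below was not tested. In bulk chromatin, more cells of a type and more open sites per cell cannot be told apart.

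Chromatin near these genes held more peaks after 72 h of BMP2. Member peaks numbered 132 in the 0 h library and 190 in the 72 h library, higher by a factor of 1.44, where the factor over all genes was 1.14. Of the 87 members, 75 had at least 1 peak and 12 had none (30.3% of all coding genes had none). Among those 75, 38 had more peaks at 72 h, 12 had fewer and 25 had equal numbers, beside 37% of all genes with more and 24.1% with fewer. Of the 72 h peaks at members, 78 of 190 (41.1%, 95% interval 34 to 48.4) were found at 72 h alone, beside 29% over all genes. The 78 were bunched in some genes: 8 at Aldh1a1, 7 at Hsd17b2 and 6 at Hsd17b6. The interval treats peaks of the same gene as independent. Of the 0 h peaks, 25 of 132 (18.9%, 12.6 to 26.7) were found at 0 h alone, beside 19.7% over all genes. At least 1 72 h-only peak was present at 40 members (all genes 39.9%, members 53.3%), and at least 1 0 h-only peak at 20 (all genes 29.7%, members 26.7%).

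Strict peaks of 1 library were nearly all on the 72 h side. Of 121 strict 72 h peaks 33 were at 72 h alone (27.3%, 19.6 to 36.1; all genes 16.9%), and of 74 strict 0 h peaks 1 was at 0 h alone (1.35%, 0.0342 to 7.3; all genes 5.94%). The 33 lay at 23 members (30.7%, 20.5 to 42.4; all genes 18.6%), and the 0 h one at Aldh5a1 (1.33% of members; all genes 6.66%). All 34 of these, and no other member peaks, are in the authors' lists of enriched regions. Those lists hold the same peak calls, so the match is no separate check. The 23 members became 36 when a peak at 1e-10 was set against 1e-10 peaks of the other library (54.5%; all genes 34.8%), 40 when each peak counted for every gene within 50 kb (48.2%; 33.3%) and 12 for peaks inside genes alone (22.6%; 14.4%). The 1 member with a strict 0 h-only peak became 6 and 7 under the first of these settings and the next (9.09% and 8.43%; all genes 19.4% and 13%). More than 1 strict 72 h-only peak was found at 7 members: Adh7, Akr1c6, Akr1d1, Aldh1a1, Hsd17b2, Hsd17b6 and Hsd3b3 (9.33% of members with a peak; all genes 4.89%). The same number had at least 3 more peaks at 72 h (all genes 6.35%), with Dhrs3 in place of Akr1d1, and 0 members had at least 3 fewer (all genes 1.63%). Peaks at 72 h and none at 0 h were found at 8 members (all genes 7.55%): Adh4, Adh6b, Akr1c6, Aldh8a1, Hsd17b3, Hsd3b3, Rdh5 and Rdh12. The reverse held for 2, Hsd17b14 and Rdh1 (all genes 6.97%).

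**Figure D1:**
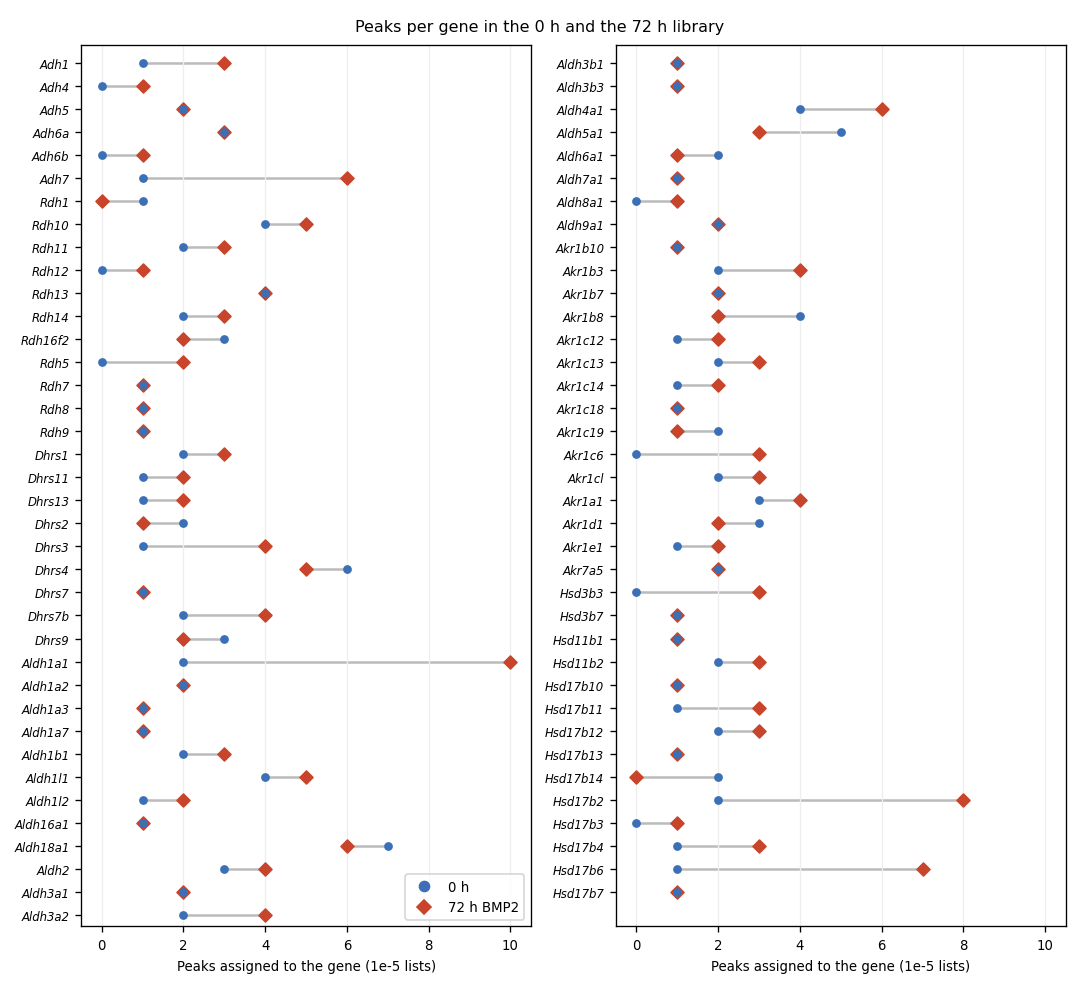
Number of 1e-05 peaks assigned to each of the 75 members with a peak, at 0 h (circles) and at 72 h of BMP2 (diamonds), 1 library each; where the numbers are equal the circle lies on the diamond. Aldh1a1 goes from 2 to 10, Hsd17b2 from 2 to 8, Hsd17b6 from 1 to 7 and Adh7 from 1 to 6, while 25 members keep their number.

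Promoter sequence is shown first, because a strict 72 h-only peak covered a RefSeq start of 3 members. RefSeq promoter windows (250 bases before to 50 after a start, GRCm38.p6) were matched by symbol for 69 of the 87 members, with 79 windows. The other members had no promoter entry. A window was called covered if a peak overlapped at least 1 bp of it. The windows covered by a strict peak at 72 h and by no peak at 0 h are those of Hsd3b3 at its upstream start (chr3:98763079-98763378, minus strand) and its downstream start (chr3:98762361-98762660, minus strand), of Akr1b7 (chr6:34412112-34412411, plus strand) and of Rdh5 (chr10:128919248-128919547, minus strand). Hsd3b3 makes the keto group of steroid hormones, Akr1b7 is an aldo-keto reductase that detoxifies lipid aldehydes, and Rdh5 is a retinol dehydrogenase known from the visual cycle. For contrast the window at the downstream Adh5 start (chr3:138442843-138443142, plus strand) is given, which strict peaks covered in both libraries; Adh5 is the formaldehyde dehydrogenase found in nearly all tissues. Capitals mark matches to the searched motifs, here CAAAGTCCA (HNF4, a nuclear receptor family of enterocytes; written as its reverse complement) and AGATAAG (bound by factors of the GATA family); windows without capitals hold none of the motifs.
Hsd3b3 upstream start: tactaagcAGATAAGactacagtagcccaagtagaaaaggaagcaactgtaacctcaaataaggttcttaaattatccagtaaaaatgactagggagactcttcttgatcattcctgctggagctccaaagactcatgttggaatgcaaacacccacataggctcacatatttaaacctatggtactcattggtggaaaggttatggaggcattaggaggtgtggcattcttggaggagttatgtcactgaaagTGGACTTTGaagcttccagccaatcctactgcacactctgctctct
Hsd3b3 downstream start: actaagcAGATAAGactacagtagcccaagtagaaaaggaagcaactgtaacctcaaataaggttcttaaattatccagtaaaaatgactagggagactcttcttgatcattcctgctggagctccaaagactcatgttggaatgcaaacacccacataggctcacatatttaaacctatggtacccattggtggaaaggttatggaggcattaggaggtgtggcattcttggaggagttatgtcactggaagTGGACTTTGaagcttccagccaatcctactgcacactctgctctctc
Akr1b7: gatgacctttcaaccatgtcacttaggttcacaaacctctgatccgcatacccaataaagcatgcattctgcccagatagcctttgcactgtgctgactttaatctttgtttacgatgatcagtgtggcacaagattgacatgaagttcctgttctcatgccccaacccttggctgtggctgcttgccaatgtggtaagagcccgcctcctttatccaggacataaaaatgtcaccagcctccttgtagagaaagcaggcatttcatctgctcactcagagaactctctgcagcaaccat
Rdh5: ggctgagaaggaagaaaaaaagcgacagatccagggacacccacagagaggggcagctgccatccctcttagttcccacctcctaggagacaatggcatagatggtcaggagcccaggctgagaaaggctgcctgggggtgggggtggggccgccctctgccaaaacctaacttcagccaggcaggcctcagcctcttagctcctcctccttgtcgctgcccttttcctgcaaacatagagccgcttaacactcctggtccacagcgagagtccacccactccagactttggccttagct
Adh5: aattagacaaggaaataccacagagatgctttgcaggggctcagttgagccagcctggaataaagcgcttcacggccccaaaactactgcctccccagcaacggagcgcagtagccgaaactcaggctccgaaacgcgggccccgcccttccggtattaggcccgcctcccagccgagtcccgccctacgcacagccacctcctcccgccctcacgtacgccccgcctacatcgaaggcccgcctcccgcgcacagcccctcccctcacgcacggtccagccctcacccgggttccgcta

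The Hsd3b3 windows are near copies of each other. With 1 base of shift they match at 297 of 299 bases (99.3%), and the starts lie 718 bp apart. Their HNF4 and GATA matches therefore come from 1 duplicated sequence, and so may the pair of peaks, since reads from near-identical copies can be placed at either. The HNF4 letters occur in 96 of 21263 RefSeq windows (0.451%) and the GATA letters in 562 (2.64%); among the 79 member windows each occurs in the Hsd3b3 pair and in no other. Of the other motifs searched on both strands, TATAAA (a core promoter box) was in 11 member windows (13.9%; all windows 12.6%), TGACNNNGC (antioxidant response element) in 10 (12.7%; 13%) and TGANTCA (AP-1) in 7 (8.86%; 6.99%). TTTATGG (CDX) and GTCTAGAC (SMAD) were in no member window, and in 481 and 48 of all windows. The DR1 and DR5 elements of nuclear receptor dimers were in no member window either, and in 10 and 1 of all windows. Matches of different motifs were counted separately where they overlapped.

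Promoter windows of members were poorer in CpG than those of all genes, covered or not: the median of observed over expected CpG was 0.27 over all member windows and 0.57 over all windows, and 0.17 and 0.23 in uncovered ones. Of the 79 member windows, 40 were covered by a peak in both libraries (50.6%; all windows 47.4%), 4 at 72 h alone (5.06%; 1.99%), 0 at 0 h alone (all windows 3.78%) and 35 in neither (44.3%; 46.8%). The ratio had a median of 0.58 in the 40 shared windows, from 0.06 to 1.18, beside 0.80 in the shared windows of all genes. In the 4 windows open at 72 h alone it ran from 0.00 to 0.20, beside a median of 0.38 over all genes' windows of that class; the lowest 2 are the Hsd3b3 near copies. Shared windows spanned the range from CpG-rich ones such as Dhrs1 (1.06), Adh5 (0.90) and Akr7a5 (0.75) to CpG-poor ones such as Aldh1a1 at its downstream start (0.06), Akr1c19 (0.08) and Hsd3b7 (0.12).

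**Figure D2:**
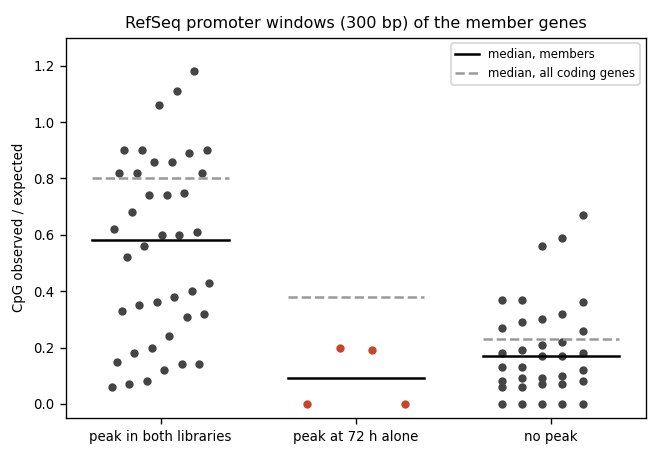
Observed over expected CpG in the RefSeq promoter windows of the members (points), by the library in which a 1e-05 peak covered the window; lines give the median of the member windows (solid) and of all coding genes' windows in the same class (dashed). The 4 windows covered at 72 h alone lie between 0.00 and 0.20, and the 40 covered in both spread from 0.06 to 1.18.

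Like those of all genes, the 72 h-only peaks of members lay mostly away from gene ends, 70 of 78 (89.7%; all genes 92.2%). At gene ends, 8 of 69 member peaks at 72 h (11.6%, 5.14 to 21.6) were found at 72 h alone, beside 6.21% over all genes. Inside members and away from their ends it was 35 of 57 (61.4%, 47.6 to 74; all genes 41.4%), and outside them 35 of 64 (54.7%, 41.7 to 67.2; all genes 42.9%). At 0 h the one-library shares were 2 of 58 at gene ends (3.45%; all genes 9.22%), 10 of 32 inside (31.2%; 25.7%) and 13 of 42 outside (31%; 29.8%). Counting any peak at a gene end, also one assigned to a neighbour, 48 of the 87 members had a gene-end peak in both libraries (55.2%; all coding genes 49.9%): 3 Adh, 6 Rdh, 8 Dhrs, 5 Aldh1, 10 other Aldh, 1 Akr1b, 4 Akr1c, 3 other Akr, 1 Hsd3b, 1 Hsd11b and 6 Hsd17b genes. The median member with a peak spans 18 kb, beside 23.3 kb for all genes with a peak. Of the 33 strict 72 h-only peaks, 15 had their midpoint inside the gene and 5 lay over 10 kb from it; 25 had another protein-coding gene within 50 kb, so the gene named is the nearest and not a shown target.

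Shared sites also tended to pass the strict threshold at 72 h more often than at 0 h. When overlapping peaks of both libraries were joined, the members had 196 sites. Of these, 62 were strict in both (31.6%; all genes 36.9%), 20 were strict at 72 h and only lenient at 0 h (10.2%; 7.78%), and 7 the reverse (3.57%; 4.83%). A further 8 were lenient in both (4.08%; 7.79%). Sites strict at 72 h and absent at 0 h numbered 32 (16.3%; 9.84%), and the reverse 1 (0.51%; 2.78%). Sites lenient at 72 h and absent at 0 h numbered 44 (22.4%; 17.1%), and the reverse 22 (11.2%; 13%). The 7 sites that were stronger by threshold at 0 h lay at Adh7, Aldh1a2, Aldh1l1, Aldh5a1 and Aldh7a1, and 2 of them at Hsd11b2.

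**Figure D3:**
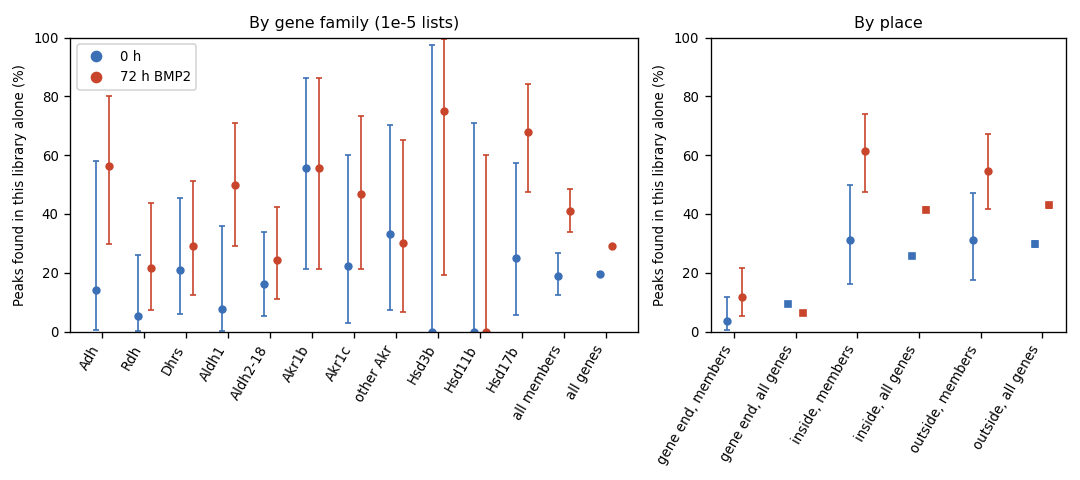
Share of 1e-05 peaks found in 1 library alone, at 0 h (blue) and 72 h (red), by gene family (left) and by place for members (circles) and all genes (squares; right), with exact 95% binomial intervals. The 72 h share is 67.9% for Hsd17b, 56.2% for Adh and 50% for Aldh1 genes, and 29% over all genes. Inside members it is 61.4%. Of the 19 Hsd17b peaks at 72 h alone, Hsd17b2 holds 7 and Hsd17b6 holds 6. Of the 12 Aldh1 ones, Aldh1a1 holds 8.

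The 6 alcohol dehydrogenase genes form 1 cluster of 257 kb on chromosome 3 with no other coding gene in it. They had 7 peaks at 0 h and 16 at 72 h. Of the 16, 9 were at 72 h alone (56.2%, 29.9 to 80.2), beside 29% over all genes. Of the 7, 1 was at 0 h alone (14.3%, 0.361 to 57.9), beside 19.7% over all genes. Among strict peaks, 6 of 11 at 72 h were at 72 h alone (54.5%, 23.4 to 83.3), beside 16.9% over all genes. At 0 h it was 0 of 4, beside 5.94%. Adh7, a retinol-active enzyme of the upper digestive tract, had 1 peak at 0 h and 6 at 72 h. Its strict 72 h-only peaks lay inside the gene at chr3:138225660-138226260 and beyond it at chr3:138237883-138238483 and chr3:138241315-138241915, 6.14 and 9.57 kb away. The single Adh7 site of the 0 h library, at the left gene end, was strict there and lenient at 72 h. Adh1, the main ethanol and retinol dehydrogenase of liver and gut, had 1 peak at 0 h and 3 at 72 h. The site just before its start was lenient at 0 h and strict at 72 h. A strict 72 h-only peak at chr3:138293376-138293976 lay 2.98 kb beyond Adh1, and another at chr3:138306204-138306804 lay 6.78 kb before Adh6a. Adh6a itself had 3 peaks in each library, of which a lenient one 3.15 kb before the gene was at 0 h alone. Adh6b had its single peak at 72 h, strict, at chr3:138339608-138340208, 1.5 kb outside the gene. Adh4 had 1 lenient peak, at 72 h. Adh5 had 2 strict peaks in each library and no one-library peak. The gains lay along the part of the cluster from Adh7 to Adh6b, apart from the lenient Adh4 peak, and Adh5 kept its sites.

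Retinol dehydrogenases and their DHRS relatives had a share of 72 h-only peaks near that of all genes. Of 23 such genes 20 had a peak, with 38 peaks at 0 h and 47 at 72 h; 12 of the 47 were at 72 h alone (25.5%, 13.9 to 40.3; all genes 29%). Strict 72 h-only peaks were found at 4 of the 20 (20%; all genes 18.6%). Rdh5 had no peak at 0 h and 2 at 72 h: the strict one over its start, printed above, at chr10:128918964-128919564, and a lenient one at its other end. The next gene, Bloc1s1, lies 0.65 kb from the former. Rdh10, which oxidises retinol in the embryo and in many epithelia, had 4 and 5 peaks; the added one was strict, inside the gene at chr1:16125457-16126057. Rdh12, a retinal reductase known from photoreceptors, had 1 strict peak at 72 h and none at 0 h, at chr12:79211276-79211876, 2.66 kb from its start. Dhrs11, a carbonyl reductase, had 1 peak at 0 h and 2 at 72 h; the added strict one lay at chr11:84827425-84828025, 0.761 kb from the nearest 0 h peak.

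Dhrs3, a retinal reductase known to be induced by retinoic acid, had 1 peak at 0 h and 4 at 72 h. All 3 added peaks were lenient and inside the gene, and also lie within the overlapping gene Vps13d. The window of the most upstream Dhrs3 start was overlapped by strict peaks in both libraries, which were assigned to Vps13d. These peaks lay before that start and did not cover it. The windows of the other Dhrs3 starts held no peak. Dhrs9, a retinol dehydrogenase of epithelia, had 3 peaks at 0 h and 2 at 72 h, and Dhrs4, a peroxisomal carbonyl reductase with the most peaks of its family, had 6 and 5. Rdh1 had 1 lenient peak, at 0 h alone. Rdh7, Rdh8, Rdh9, Rdh13 and Dhrs7 kept the same number of peaks, all shared. Rdh16, Rdh19 and Dhrs7c had none. Of the 25 strict 0 h peaks at these genes, 0 were absent at 72 h (interval 0 to 13.7%; all genes 5.94%), which is within counting error of the background.

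Of the retinal dehydrogenases, Aldh1a1 gained the most peaks of all members. It makes retinoic acid in the cytosol and had 2 peaks at 0 h and 10 at 72 h, 8 of them at 72 h alone. Both 0 h peaks were strict and shared, 1 over the downstream start and 1 10.8 kb beyond the gene. The upstream start was covered in neither library. Of the 8, 6 lay inside the gene between the 2 annotated starts, and the strict ones were at chr19:20558748-20559348 and chr19:20566924-20567524, 42.9 and 34.7 kb before the downstream start. The remaining 2 lay 10.1 and 12.8 kb beyond the gene, the nearer with a gap of 108 bp to a 0 h peak. Aldh1a1 spans 151 kb, against 18 kb for the median member. Its neighbour Aldh1a7 had 1 shared peak, strict at 72 h alone.

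The other ALDH1A genes showed no such gain. Aldh1a2 had 2 peaks in each library, 1 of them lenient and at 72 h alone, 27.7 kb outside the gene. The site at its start was strict at 0 h and lenient at 72 h. Aldh1a3 had 1 lenient peak in each library at different places, at its gene end at 72 h and 10.6 kb outside at 0 h. Aldh1b1, a mitochondrial enzyme, had 2 and 3 peaks, the added one lenient. Aldh1l1, a cytosolic folate enzyme, had 4 and 5, all shared. Its mitochondrial counterpart Aldh1l2 had 1 and 2, the added one strict, 5.9 kb outside the gene at chr10:83481244-83481844.

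The 14 remaining aldehyde dehydrogenases had nearly equal numbers, 31 peaks at 0 h and 33 at 72 h, with 1 strict peak of 1 library on each side. The 0 h one lay inside Aldh5a1, the succinic semialdehyde dehydrogenase of GABA breakdown, at chr13:24923708-24924308, 2.88 kb from the nearest 72 h peak. Aldh5a1 had 5 peaks at 0 h and 3 at 72 h, and its start was strict at 0 h and lenient at 72 h. The 72 h one lay inside Aldh4a1, a mitochondrial enzyme of proline breakdown, at chr4:139630017-139630617; that gene had 4 and 6 peaks. Aldh18a1, which acts in the opposite direction and makes proline, had the most peaks of all members, 7 at 0 h and 6 at 72 h. Its 6 peaks at 72 h were all shared, and 2 of them were lenient at 0 h and strict at 72 h. Aldh2, the mitochondrial acetaldehyde dehydrogenase, had 3 and 4 peaks, all shared, and Aldh9a1, an enzyme of carnitine synthesis, had 2 strict peaks in each library. Aldh3a2, the fatty aldehyde dehydrogenase, had 2 and 4 peaks; its one-library peaks were lenient, and 1 of them was 46 bp from a 0 h peak. Aldh8a1 had 1 lenient peak, at 72 h, and Aldh3b2 had none assigned to it. A lenient 0 h-only peak at chr19:3972098-3972698, at the end of the overlapping Aldh3b3 and assigned to that gene, also had its midpoint inside Aldh3b2.

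Aldo-keto reductase genes gained strict peaks in several places and lost lenient ones in others. The 17 genes had 27 peaks at 0 h and 34 at 72 h, but 8 strict peaks at 0 h and 25 at 72 h. Over all genes strict peaks numbered 18725 and 23160. Of the 34, 15 were at 72 h alone (44.1%, 27.2 to 62.1; all genes 29%), and of the 27, 10 at 0 h alone (37%, 19.4 to 57.6; all genes 19.7%). All 10 one-library peaks at 0 h were lenient, and 10 of the 15 at 72 h were strict. Over all genes most one-library peaks were lenient in both libraries, with 1112 of 6485 strict at 0 h and 3921 of 10943 at 72 h. Some of the one-library peaks at Akr genes overlap and form 1 site: a pair at Akr1b8 and a pair at Akr1d1 at 0 h, and a pair at Akr1c6 at 72 h.

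In the Akr1b cluster on chromosome 6 the libraries differed along its length. Akr1b8, a retinal and lipid aldehyde reductase, had 4 peaks at 0 h and 2 at 72 h, all lenient; 3 of the 4 were at 0 h alone, 3.47 to 6.95 kb beyond the gene. Akr1b10 had 1 peak in each library at different places: a lenient one 0.948 kb past its start at 0 h and a strict one 6.87 kb beyond it, at chr6:34403514-34404114, at 72 h. Akr1b7 had 2 in each; at 72 h a strict peak covered its start (chr6:34411925-34412525), 0.793 kb from the nearest 0 h peak, and its shared site inside the gene was lenient at 0 h and strict at 72 h. A lenient 0 h-only peak lay 25 kb beyond Akr1b7. Akr1b3, the aldose reductase of the polyol pathway, kept a strict gene-end peak in both libraries and had 2 further lenient peaks at 72 h. One of those lay 49.3 kb from the gene, just inside the 50 kb limit; the closest peak beyond the limit lay 51.7 kb from Aldh8a1.

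The Akr1c cluster, with Akr1e1, spans 560 kb of chromosome 13 and had 8 peaks at 0 h and 14 at 72 h. Akr1c6, which can form testosterone, had no peak at 0 h and 3 strict ones at 72 h. These lay at chr13:4428920-4429520, 5.09 kb from the gene, and 45.1 and 45.4 kb away, where they overlap and form 1 site; no other coding gene lay within 50 kb of them. Akr1c12 and Akr1e1 each had 1 peak at 0 h and 2 at 72 h. Their added peaks were strict, at chr13:4264982-4265582, 2.89 kb from Akr1c12, and inside Akr1e1 at chr13:4606659-4607259. Akr1c13, Akr1c19 and Akr1c12 kept strict peaks at their starts in both libraries. Akr1c18, the progesterone-inactivating enzyme, had 1 shared site, lenient at 0 h and strict at 72 h. Akr1c20 and Akr1c21 had no peak. Because the genes of this cluster, like those of the Hsd3b and Rdh clusters, are close copies, reads may have been lost or misplaced between them, which was not tested.

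Of the other aldo-keto reductases, Akr1d1, the steroid reductase of bile acid synthesis, had 3 peaks at 0 h and 2 at 72 h with none in common. At 72 h both were strict and inside the gene, at chr6:37569762-37570362 and chr6:37572846-37573446; at 0 h all 3 were lenient and lay 40.4 to 42.9 kb outside. Akr1cl, on chromosome 1, had 2 and 3 peaks, and its strict 72 h-only peak at chr1:64992381-64992981 lay 178 bp from a 0 h peak and 20.4 kb from the gene. Akr1a1, the general aldehyde reductase, and Akr7a5, which reduces aflatoxin aldehyde, had shared peaks alone, 3 and 4 for the former and 2 and 2 for the latter.

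**Figure D4:**
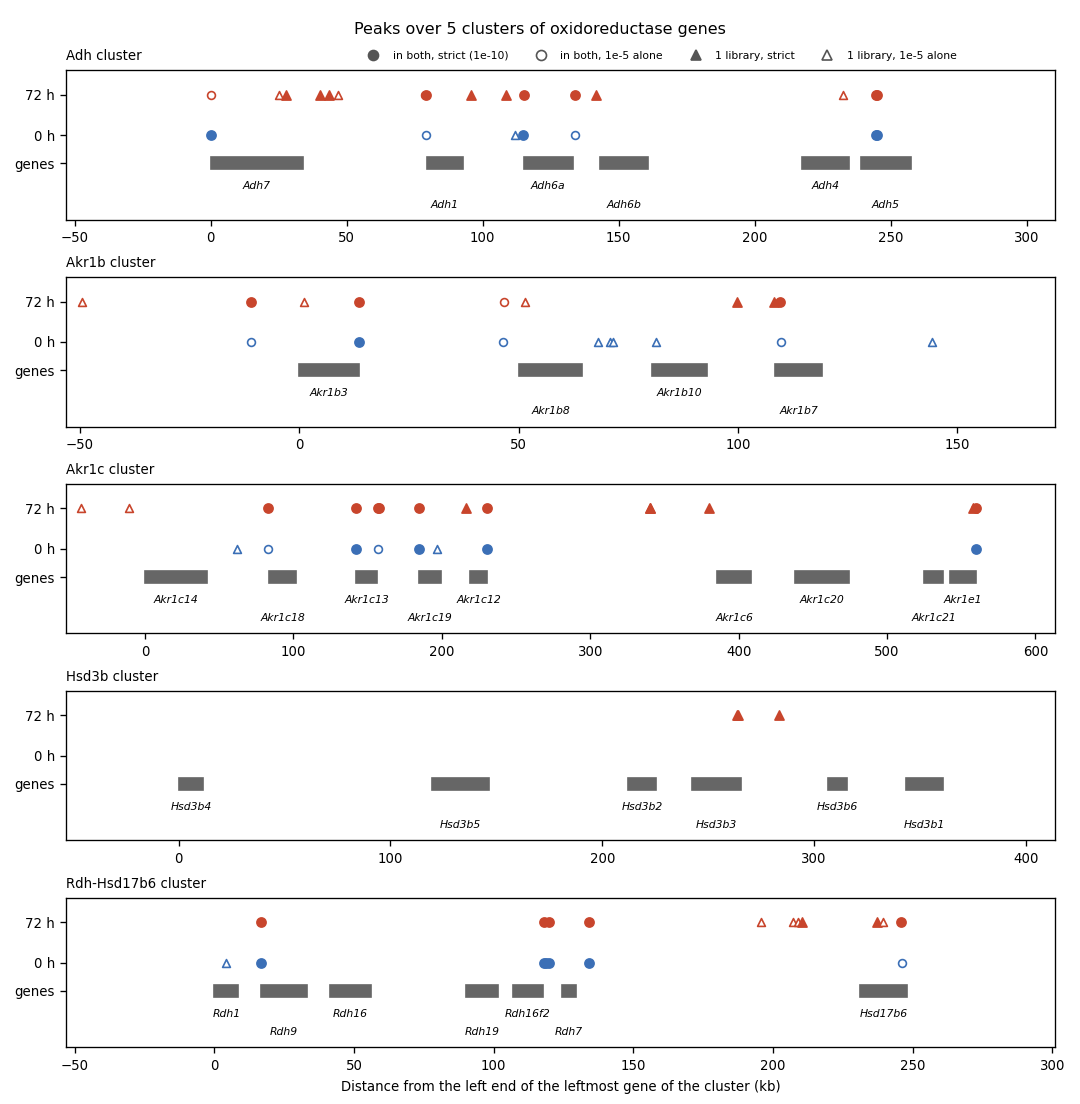
Peaks assigned to members along 5 gene clusters, against distance in kb from the left end of the leftmost gene; grey boxes are member genes, circles shared peaks, triangles peaks of 1 library, filled symbols strict peaks and open symbols lenient ones. In the Hsd3b cluster all 3 peaks are strict and at 72 h, and in the Adh cluster the 6 strict triangles are all in the 72 h row. Over all genes 16.9% of strict 72 h peaks and 5.94% of strict 0 h peaks were in 1 library alone.

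The hydroxysteroid dehydrogenases had a larger share of 72 h-only peaks than the Adh, Rdh with Dhrs, Aldh or Akr genes, though its interval overlapped those of the Adh, Aldh and Akr genes. Without Hsd17b2 and Hsd17b6 the share was 9 of 21 (42.9%), below those of the Adh (56.2%) and Akr genes (44.1%). The 20 genes had 16 peaks at 0 h and 36 at 72 h, and 22 of the 36 were at 72 h alone (61.1%, 43.5 to 76.9; all genes 29%). Hsd17b2, which inactivates estradiol and testosterone, had 2 peaks at 0 h and 8 at 72 h, with 1 strict site common to both libraries and 1 lenient peak at 0 h alone. Its strict 72 h-only peaks lay 5.17 kb outside the gene at chr8:117695514-117696114 and inside it at chr8:117706038-117706638, and a lenient 72 h-only peak covered the gene end between them. Hsd17b6, which oxidises androgens and retinol, had 1 and 7 peaks; the strict 72 h-only ones were at chr10:127996618-127997218, inside the gene, and at chr10:127969778-127970378, 20.9 kb away. Its shared site was lenient at 0 h and strict at 72 h. Of the 13 peaks that both genes had at 72 h alone, 9 were lenient. Most 72 h-only peaks over all genes were lenient too, with 3921 of 10943 strict.

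Hsd17b11 and Hsd17b3 each had 1 strict 72 h-only peak. Hsd17b11, a lipid droplet enzyme, had 1 and 3 peaks, both added ones at 72 h alone, the strict one at chr5:104025128-104025728, 3.63 kb before its start. Hsd17b3, known for testosterone synthesis in testis, had 1 strict peak, at 72 h alone, 4.14 kb outside the gene at chr13:64053830-64054430. Hsd17b13, a paralogue next to Hsd17b11, had 1 shared peak, lenient at 0 h and strict at 72 h. Hsd17b14 went the other way, with 2 lenient peaks at 0 h and none at 72 h. Hsd17b7, an enzyme of cholesterol synthesis, and Hsd17b10, a mitochondrial enzyme, each kept 1 strict shared peak at the start. Hsd17b4, an enzyme of peroxisomal fatty acid oxidation, had 1 and 3 peaks, 1 of the added ones only 14 bp from a 0 h peak. Hsd17b1 had none.

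In the Hsd3b cluster on chromosome 3, only Hsd3b3 of 6 members had peaks. It had none at 0 h and 3 strict ones at 72 h: those over its starts at chr3:98762151-98762751 and chr3:98762779-98763379, and 1 at chr3:98782061-98782661, 17.8 kb outside the gene. The nearest 0 h peak was at least 327 kb from each. Hsd3b1, Hsd3b2, Hsd3b4, Hsd3b5 and Hsd3b6 had none. Hsd3b7, which acts in bile acid synthesis and lies on chromosome 7, kept 1 strict shared peak at its start. Hsd11b1, which reactivates glucocorticoids, kept 1 strict shared peak inside the gene. Hsd11b2, which inactivates them, had 2 strict peaks at 0 h and 3 lenient ones at 72 h at the same 2 sites.

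Strict gains were also counted by whether members lie in tandem clusters, a grouping made after the values were seen. Chains of at least 3 members no more than 200 kb apart gave 6 clusters with 35 members, the 5 in the cluster maps and the Aldh3b genes. Of 25 clustered members with a peak, 11 had a strict 72 h-only peak (44%, 24.4 to 65.1), and of 50 other members 12 (24%, 13.1 to 38.2), beside 18.6% of all genes; the intervals overlap. Of the 35 clustered members 10 had no peak, and of the 52 others 2 had none, beside 30.3% of all coding genes. The untested limit on close copies given above for the Akr1c, Hsd3b and Rdh clusters applies to these counts too. Neighbours in a cluster can share a site, so these genes are not independent.

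Other genes of the retinoid and steroid pathways, from lists that hold no member, held one-library peaks in both directions. Of 21 retinoid handling genes, 19 had a peak, 6 had a strict 72 h-only peak and 3 a strict 0 h-only one (all genes 18.6% and 6.66%). Strict 72 h-only peaks were at Rbp2, the retinol-binding protein of enterocytes, Bco1 and Scarb1, which cleave and import carotenoids, Isx, and the receptors Rarb and Rxra; strict 0 h-only peaks were at Cyp26b1, Rara and Rarb. Lrat, which esterifies retinol, had 1 peak at 0 h and 4 at 72 h, and Cyp26b1, which breaks down retinoic acid, had 4 and 2. Of 11 steroid genes, 9 had a peak, 4 had a strict 72 h-only peak (Srd5a1, Srd5a2, Nr3c1 and Nr3c2) and 0 a strict 0 h-only one. With so few genes, 0 is near the 6.66% of all genes with a strict 0 h-only peak, and 18.6% had a strict 72 h-only one.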

How the data were processed

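Accessible chromatin was measured by ATAC-seq, in which a transposase cuts open DNA, with 1 library per time point. The submitters' processing notes name mm10 and, with no settings, MACS2 2.2.7.1, Bowtie2 2.4.1, bedtools 2.26.0, cutadapt 1.9.1, deepTools 3.5.4, Picard 2.18.27 and SAMtools 1.3.1 for the authors' work. The deposited lists hold positions and peak names alone, called per library, so read depth and peak height are unknown. Libraries of 24 h and 48 h were not analysed here.

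Genes came from RefSeq on GRCm38.p6, the assembly mm10 denotes; 21887 protein-coding genes on chromosomes 1 to 19, X and Y were used. Each peak went to the gene that held its midpoint or lay nearest within 50 kb, ties going to the nearer gene end, and all genes were treated alike. Regions are 1-based. Shares carry exact Clopper-Pearson 95% intervals, which cover counting error alone. With 1 library per time point no test was made. Assignment and classing were checked on simulated peaks. Named were members with a strict peak of 1 library, members whose peak numbers differed by 3 or more, the 5 with most peaks, and members without a peak; other names illustrate a family. The members and lists were chosen with earlier results of these data known. Python 3.11.15, SciPy 1.17.1 and matplotlib 3.10.9 were used.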

Additional observations from a re-analysis of the deposited data

How the results depend on the processing

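No paired analysis was possible because each time point has 1 library, and leaving out a replicate was not possible for the same reason. The share of 72 h-only peaks at members stayed above that of all genes under each of the 9 alternatives run. The ratio of 72 h to 0 h peaks ran from 1.21 to 1.64. Every alternative re-counted the libraries on which the families were selected, so the kept direction adds no support. The share of 72 h peaks found at 72 h alone moved to 27.3% among strict peaks, 31.8% with every gene within 50 kb and 57.9% without gene ends; at 0 h the share moved to 10.8% with 1e-10 lists in both libraries, 1.35% among strict peaks and 31.1% without gene ends. Members with a strict 72 h-only peak numbered 36 with 1e-10 lists in both libraries, 40 with every gene within 50 kb and 12 inside gene bodies; with a strict 0 h-only peak they numbered 6 with 1e-10 lists, 7 with every gene and 2 when 0.5 of the peak had to overlap (2.67%; all genes 8.66%). At 1e-05, members with a 72 h-only peak numbered 62 with every gene within 50 kb (74.7%; all genes 64.4%) and 23 inside gene bodies (43.4%; 32.1%); with a 0 h-only peak 6 with 1e-10 lists (9.09%; 19.4%), 43 with every gene (51.8%; 52.2%) and 11 inside (20.8%; 23%). The 0 h-only share of members lay above that of all genes under 4 of 9 alternatives. A peak absent from a list may be present below the threshold, and depth is unknown.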
